A study of Mus musculus with 23 samples.

Results

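The genes described here are 8 mouse genes that move iron and other metals between, into and out of cells: transferrin (Trf), the transferrin receptor (Tfrc), the divalent metal transporter DMT1 (Slc11a2), ferroportin (Slc40a1), the heavy and light ferritin chains (Fth1, Ftl1) and the metallothioneins Mt1 and Mt2. They were chosen by name for their role, with earlier results of these data known, and are 8 of the 27466 genes in the table of RNA-sequencing counts. All samples came from wild-type CD-1 mice. In vivo testes were collected at 6.5 days postpartum (dpp), some of them fresh and some after controlled slow freezing and thawing (CSF). Testes of 10.5 dpp, of 22.5 dpp and of 36.5 dpp were fresh. Explants of 6.5 dpp testes were grown in α-MEM with KnockOut serum replacement, gentamicin and retinol and stopped after 4, 16 or 30 days (D4, D16 and D30), so that D4 matches 10.5 dpp in age, D16 matches 22.5 dpp and D30 matches 36.5 dpp. D30 also includes an explant sample that had been frozen. Each sample is a whole testis or a pool of explants, with every cell type of the tissue, and the necrotic centre of the explants was cut away before RNA was extracted.

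Of the 23 columns, 6.5 dpp fresh replicates 2 and 3 hold identical counts and were counted as 1 library. The library labelled 6.5 dpp fresh replicate 1 stands apart: across genes its ranks correlated best with D16 replicate 1 (Spearman rho = 0.985) and less with the 6.5 dpp libraries (0.928 with fresh replicate 2), and it was left out. Of the 21 libraries analysed, 4 are of 6.5 dpp testes (1 of them fresh, 3 CSF) and 4 of D30 explants (1 of them CSF). The stages 10.5 dpp, 22.5 dpp and D4 have 3 libraries each, and 36.5 dpp and D16 have 2 each. They hold between 28351546 and 69029328 counts. The smallest count of a member in any of them is 134 (Ftl1 at 36.5 dpp), so that counting error was small beside the spread between libraries.

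Iron travels in blood and in the fluid around germ cells bound to transferrin, and the Sertoli cells of the seminiferous tubule make transferrin of their own. Cells take it in through the transferrin receptor, DMT1 carries the freed iron out of the endosome into the cytosol, ferritin stores what is not used, and ferroportin is the only known exporter of iron from mammalian cells. Metallothioneins are small cysteine-rich proteins that bind zinc and copper, and their genes respond to metals through the transcription factor MTF1. Several of the iron genes are also controlled after transcription: iron regulatory proteins bind hairpins in the messenger RNA, called iron-responsive elements, when iron is scarce. Bound in front of the coding sequence they hold back translation, and bound behind it they slow the decay of the message.

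The hairpins found in the members are shown because their place in the messenger bears on how its RNA count can be read. Among genes with a match, it separates messengers whose level can follow iron through decay from those where iron acts on translation. RNA counts do not see the latter. Sites were read from GENCODE M21 transcripts (GRCm38) as a 6-base loop of the letters CAGTGN, closed by a stem of 5 base pairs (G with T allowed), with an unpaired C before the stem. Each is given as 26 bases with the loop in capitals. Ferritin chains and ferroportin each hold 1 site in the 5′ UTR, and the transferrin receptor holds 4 in the 3′ UTR:

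Fth1: cctgcttcaaCAGTGCttgaacggaa

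Ftl1: cttgcttcaaCAGTGTttgaacggaa

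Slc40a1: acttcagctaCAGTGTtagctaagtt

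Tfrc, first: ttatcggaagCAGTGCcttccataat

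Tfrc, second: ttatcgggagCAGTGTcttccataat

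Tfrc, the third: atatcggagaCAGTGAtctccatatg

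Tfrc, the fourth: ttatcgggaaCAGTGTttcccataat

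In GRCm38 the Fth1 site lies at chr19:9982734-9982759 on the plus strand, the Ftl1 site at chr7:45459780-45459805 and the Slc40a1 site at chr1:45925466-45925491, both on the minus strand. The Tfrc sites lie on the plus strand at chr16:32631221-32631246, chr16:32631600-32631625, chr16:32631665-32631690 and chr16:32631712-32631737. The same letters and pairing were found in the 5′ UTR of 28 of 20873 genes (0.134%) and in the 3′ UTR of 127 of 20987 (0.605%). No match was found in the transcripts of Trf, Slc11a2, Mt1 or Mt2. The pattern misses any hairpin with a broken stem or other loop letters, so that a missing match does not show that a gene lacks an element. The number of sites in a gene can be too low for the same reason.

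Mt1 and Mt2 are neighbours on chromosome 8, both on the plus strand. The 250 bases before a start site of each (RefSeq, GRCm38.p6) are shown because both genes rose between 10.5 and 22.5 dpp. The windows are unlike: the start site used for Mt1 lies inside the annotated gene (chr8:94178883-94180327), and so does most of its window. The window of Mt2 ends just before its gene. Capitals mark the letters TGCACNC and TGCGCNC on either strand, the core of the metal response element that MTF1 binds. The window of Mt1 is chr8:94178839-94179088 and that of Mt2 is chr8:94172368-94172617:

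Mt1: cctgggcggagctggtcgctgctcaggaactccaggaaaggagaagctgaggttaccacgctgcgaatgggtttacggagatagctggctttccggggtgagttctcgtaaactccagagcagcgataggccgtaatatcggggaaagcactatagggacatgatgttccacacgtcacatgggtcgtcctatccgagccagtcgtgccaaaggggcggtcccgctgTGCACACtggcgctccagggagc

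Mt2: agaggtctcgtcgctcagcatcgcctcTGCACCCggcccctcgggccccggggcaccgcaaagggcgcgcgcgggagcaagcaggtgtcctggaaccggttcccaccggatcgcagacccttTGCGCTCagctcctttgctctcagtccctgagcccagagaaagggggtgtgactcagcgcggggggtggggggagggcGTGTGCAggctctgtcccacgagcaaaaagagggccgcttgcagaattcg

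With the 50 bases after the start site included, the Mt1 window holds 3 matches and that of Mt2 holds 4. Of these, 1 and 3 lie in the bases shown. In Mt1 the matches after the start site used begin at bases 3 and 21, and bases beyond 50 were not scanned. As the windows are unlike, the counts do not rank the 2 genes. At least 1 match is in 25.7% of 32851 such windows of all genes, at least 3 in 1.97% and at least 4 in 0.517%. Promoter windows were found for 5 of the 8 members (Tfrc, Fth1, Ftl1, Mt1 and Mt2). Of the other 3, Tfrc has 2 overlapping matches in 1 of its 2 windows, while Fth1 and Ftl1 have none.

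Levels are given in counts per 1000000 counts of the library (CPM). Differences between stages were tested in 1 edgeR fit of the 21 libraries with TMM scaling, and a gene was called when its p, adjusted over the 19255 genes tested, was under 0.05; all 8 members passed the filter on low counts. The study calls its samples biological replicates, those of culture being pools of explants. The sources used here do not say which libraries came from separate animals. The p-values therefore measure the spread between these samples, which may differ from that between animals. Log2 fold changes are from that fit, with SE. TMM factors were 0.645 and 0.661 at 36.5 dpp and 0.877 to 1.15 elsewhere, so that fitted differences involving 36.5 dpp differ from those of CPM. Scaling on the library total alone moved the median log2 fold change of all genes by -0.29 for 22.5 against 10.5 dpp, by -0.51 for 36.5 against 22.5 dpp, by 0.15 for D16 against 22.5 dpp and by 0.63 for D30 against 36.5 dpp. RLE factors moved it by 0.19 for 36.5 against 22.5 dpp and by -0.26 for D30 against 36.5 dpp. For the culture effect at D16 minus that at D4 the shift was 0.24 with library totals, and for D30 minus D4 it was 0.73 with library totals and -0.23 with RLE factors.

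**Figure D1:**
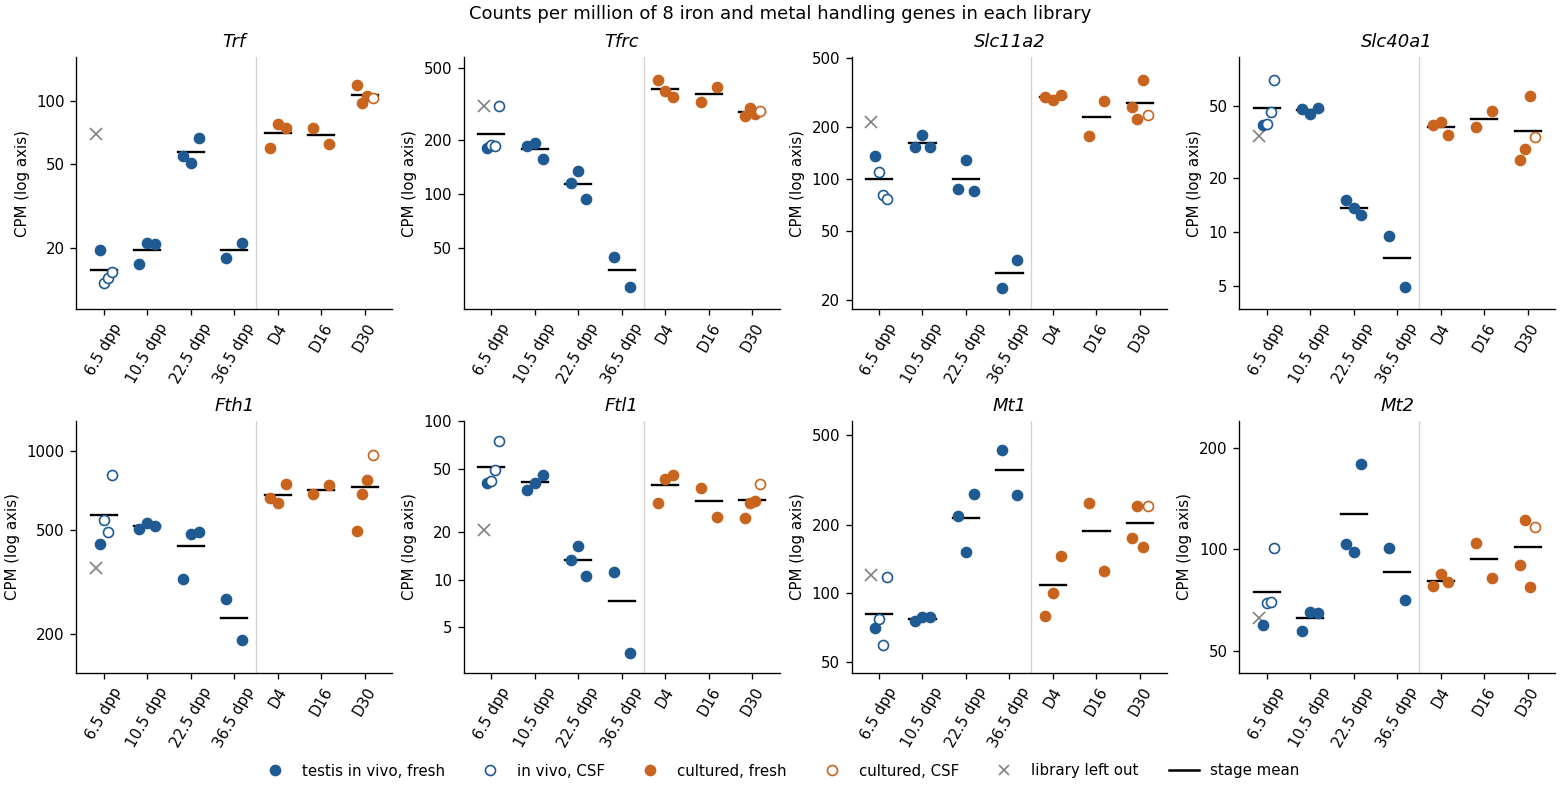
CPM of each member (log axis) in each library, by stage, with a bar at the stage mean. Blue points are testes in vivo, orange points cultured explants, open points CSF tissue and the cross the library that was left out; Tfrc and Slc11a2 are above every 36.5 dpp library in all explants.

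Transferrin messenger was low in the young testis, peaked at 22.5 dpp in vivo and was high at every day of culture. At 6.5 dpp Trf (NCBI gene 22041, chr9:103208876-103230286) measured 19.7 CPM in the fresh library and 13.7, 14.5 and 15.4 CPM in the 3 CSF libraries. It stood at 16.9, 21.2 and 21.0 CPM at 10.5 dpp and at 54.8, 50.9 and 66.5 CPM at 22.5 dpp. The 22.5 dpp libraries were all above those of 10.5 dpp, by 1.85 ± 0.19 (SE, edgeR adjusted p = 2.68e-07) on the log2 scale. At 36.5 dpp the level was back at 18.1 and 21.1 CPM, within the 10.5 dpp range, and it fell by 1.05 ± 0.21 (SE, edgeR adjusted p = 6.66e-04) on the log2 scale from 22.5 dpp. In culture Trf stood at 59.6, 77.4 and 74.1 CPM on D4 and at 74.4 and 62.5 CPM on D16. On D30 it measured 119, 97.8 and 105 CPM in the fresh explants and 102 CPM in the CSF explants. The D4 explants were above the 6.5 dpp tissue they came from, with a log2 fold change of 2.17 ± 0.17 (SE, edgeR adjusted p = 1.31e-07), and 3.58-fold above the 10.5 dpp testes in mean CPM. With 6.5 dpp fresh replicate 1 in the fit the difference from 6.5 dpp was 1.33 and not called (edgeR adjusted p = 0.0746), and the fall from 22.5 to 36.5 dpp was not called either (-1.05, edgeR adjusted p = 0.154). D16 explants overlapped the 22.5 dpp testes. In bulk samples such as these, a change in the number of cells that express a gene and a change of its RNA per cell cannot be told apart.

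The receptor and the endosomal transporter both fell in vivo between 22.5 and 36.5 dpp, to their lowest level, and both were high in the explants. Tfrc (NCBI gene 22042, chr16:32608896-32632794), the cell's entry point for transferrin iron, measured 180.0 CPM in the fresh library and 187, 186 and 307 CPM in the 3 CSF libraries. CSF replicate 3 was the high library among these. Tfrc then measured 184, 193 and 156 CPM at 10.5 dpp, 115, 135 and 93.4 CPM at 22.5 dpp and 44.8 and 30.4 CPM at 36.5 dpp. Only the last step was called, a log2 fold change of -1.09 ± 0.26 (SE, edgeR adjusted p = 0.0024). In CPM the 22.5 dpp libraries were already all below those of 10.5 dpp, 1.56-fold in mean. The explants stood at 429, 374 and 347 CPM on D4 and 325 and 393 CPM on D16. On D30 Tfrc measured 273, 301 and 279 CPM in the fresh explants and 289 CPM in the CSF explants. Those values lie within a narrow band (SD 12.4 CPM), below D4 and D16 but above every in vivo library except the high CSF one.

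Slc11a2 (NCBI gene 18174, chr15:100387898-100424209) followed a like course. It measured 135 CPM in the fresh library and 109.7, 80.7 and 77.0 CPM in the 3 CSF libraries. The 10.5 dpp testes stood at 154, 179.6 and 153 CPM, those of 22.5 dpp at 87.3, 129 and 85.7 CPM and those of 36.5 dpp at 23.6 and 34.2 CPM. From 22.5 to 36.5 dpp it fell by 1.28 ± 0.27 (SE, edgeR adjusted p = 9.08e-04) on the log2 scale, with no overlap. In CPM the 22.5 dpp libraries were also all below those of 10.5 dpp, 1.61-fold in mean, a step that was not called. In the explants it measured 296, 287 and 306 CPM on D4 and 177 and 281 CPM on D16. On D30 it measured 260.1, 223 and 375 CPM in the fresh explants and 236 CPM in the CSF explants. The D4 explants were the tightest group among the explants, and their log2 fold change over 6.5 dpp was 1.59 ± 0.22 (SE, edgeR adjusted p = 4.16e-05). Against the fresh 6.5 dpp library alone that difference is smaller, 1.19 (edgeR adjusted p = 0.0511 in fresh tissue only, where that lone library is taken to vary like the other groups). The D16 pair differed widely, and D30 fresh replicate 3 was the highest library of all. Another gene of the count table, Gm5475, overlaps Slc11a2, and the strand setting of the counting is not given in the sources used here.

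Ferroportin, the exporter, fell in vivo between 10.5 and 22.5 dpp, while the explants overlapped the 6.5 dpp testes. Slc40a1 (NCBI gene 53945, chr1:45908070-45926532) measured 39.4 CPM in the fresh library and 39.8, 46.3 and 69.3 CPM in the 3 CSF libraries. It stood at 48.0, 44.9 and 48.8 CPM at 10.5 dpp, 15.1, 13.5 and 12.4 CPM at 22.5 dpp and 9.42 and 4.94 CPM at 36.5 dpp. The 22.5 dpp libraries were all below those of 10.5 dpp, and it fell by 1.49 ± 0.29 (SE, edgeR adjusted p = 3.02e-04) on the log2 scale. The explants measured 39.3, 40.5 and 34.3 CPM on D4 and 38.0 and 46.9 CPM on D16. On D30 Slc40a1 measured 25.2, 28.9 and 56.6 CPM in the fresh explants and 33.8 CPM in the CSF explants. No step in culture was called.

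The heavy ferritin chain, which oxidises iron on its way into the ferritin shell, showed no called step in vivo or in culture. Fth1 (NCBI gene 14319, chr19:9980600-9985111) measured 441 CPM in the fresh library and 546, 489 and 808 CPM in the 3 CSF libraries. It stood at 504, 531 and 519 CPM at 10.5 dpp, 326, 483 and 490.5 CPM at 22.5 dpp and 272 and 189 CPM at 36.5 dpp. In the explants it measured 662, 633 and 749 CPM on D4 and 685 and 740.1 CPM on D16. On D30 it measured 495, 683 and 773 CPM in the fresh explants and 969 CPM in the CSF explants. The 36.5 dpp libraries were nonetheless below all others in CPM, and the explants overlapped the 6.5 dpp testes.

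Ftl1 (NCBI gene 14325, chr7:45457944-45459886), the light chain that helps the mineral core form, fell in vivo in the same step as ferroportin. It measured 40.6 CPM in the fresh library and 41.9, 49.2 and 74.6 CPM in the 3 CSF libraries. The level was 36.5, 40.7 and 45.9 CPM at 10.5 dpp, 13.3, 16.2 and 10.5 CPM at 22.5 dpp and 11.1 and 3.45 CPM at 36.5 dpp. From 10.5 to 22.5 dpp it fell by 1.34 ± 0.35 (SE, edgeR adjusted p = 0.00276) on the log2 scale, with no overlap, whereas the 36.5 dpp pair spread over more than the distance to 22.5 dpp. The explants stood at 30.4, 43.2 and 45.5 CPM on D4 and 37.6 and 24.8 CPM on D16. On D30 Ftl1 measured 24.4, 30.6 and 31.4 CPM in the fresh explants and 40.3 CPM in the CSF explants. The count of Ftl1 is uncertain: of the 50-base windows of its main transcript, 74.8% also occur, letter for letter, in transcripts of 15 other genes elsewhere in the genome. Among these are the ferritin pseudogenes Ftl1-ps1, Ftl2-ps and Ftl1-ps2. For Fth1 the share is 6.59% (the pseudogene Gm6977), and for the other 6 members it is 0 of all windows. How reads with several matches were treated is not given in the sources used here.

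Both metallothioneins rose in vivo between 10.5 and 22.5 dpp, and a further step up was called for Mt1. Mt1 (NCBI gene 17748, chr8:94178883-94180327) measured 70.3 CPM in the fresh library and 77.5, 59.5 and 118 CPM in the 3 CSF libraries. It stood at 75.4, 78.5 and 78.4 CPM at 10.5 dpp, 221, 152 and 276 CPM at 22.5 dpp and 429 and 272 CPM at 36.5 dpp. The first of these steps up was 1.80 ± 0.35 (SE, edgeR adjusted p = 2.41e-04) on the log2 scale. The second was 1.18 ± 0.37 (SE, edgeR adjusted p = 0.0132), but in CPM 36.5 dpp replicate 2 lay inside the 22.5 dpp range. That second call was lost without 36.5 dpp replicate 1 (0.84, edgeR adjusted p = 0.158), without 22.5 dpp replicate 2 (0.94, edgeR adjusted p = 0.0637) and with scaling on library totals (0.70, edgeR adjusted p = 0.0860). The explants measured 79.8, 101 and 146 CPM on D4 and 250.4 and 126 CPM on D16. On D30 Mt1 measured 175, 242 and 160.1 CPM in the fresh explants and 242 CPM in the CSF explants. The D16 pair lay further apart than the means of D4 and D30, and no step in culture was called.

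Mt2 (NCBI gene 17750, chr8:94172618-94173567) measured 59.5 CPM in the fresh library and 69.3, 69.8 and 101 CPM in the 3 CSF libraries. It stood at 57.2, 65.3 and 64.9 CPM at 10.5 dpp, 104, 98.4 and 179 CPM at 22.5 dpp and 101 and 70.8 CPM at 36.5 dpp. It rose from 10.5 to 22.5 dpp by 1.33 ± 0.28 (SE, edgeR adjusted p = 4.51e-04) on the log2 scale, and the 36.5 dpp pair reached no higher than the middle 22.5 dpp library. The explants measured 77.8, 84.6 and 79.9 CPM on D4 and 105 and 82.0 CPM on D16. On D30 Mt2 measured 90.0, 122 and 77.2 CPM in the fresh explants and 116 CPM in the CSF explants. The explants of all 3 days lay between 77.2 and 122 CPM.

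Counted over the 8 members, the steps of testis development and of culture called the following. Between 6.5 and 10.5 dpp 0 of 8 were called, where 1.14% of all genes tested were. Between 10.5 and 22.5 dpp 3 were called higher (Trf, Mt1, Mt2) and 2 lower (Slc40a1, Ftl1), against 33.6% and 27.9% of all genes. Between 22.5 and 36.5 dpp 1 was called higher (Mt1) and 3 lower (Trf, Tfrc, Slc11a2), against 23.3% and 27.5% of all genes. From 6.5 dpp to D4 of culture 3 were called higher (Trf, Slc11a2, and Tfrc with a log2 fold change of 0.84 ± 0.21 (SE, edgeR adjusted p = 0.00838)) and 0 lower, against 10.8% and 10.1%. The Tfrc call was lost with only the compared groups in the fit (0.86, edgeR adjusted p = 0.0601) and with 6.5 dpp fresh replicate 1 in it (0.67, edgeR adjusted p = 0.0849). From D4 to D16 0 were called, where 23.9% of genes were, and from D16 to D30 0 were called, where 1.79% were. Of the steps with no member called, the number of members with an unadjusted p under 0.05 was 1 (6.5 to 10.5 dpp), 1 (D4 to D16) and 1 (D16 to D30). DESeq2 called 0, 0 and 1 of the 8 in these steps.

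Explants were then set against testes of the same age, which puts culture beside development in vivo. At D4 the transferrin route was higher in culture: 3 members were called higher and 0 lower, against 4.92% and 3.18% of all genes. The log2 fold change of Trf was 1.92 ± 0.19 (SE, edgeR adjusted p = 3.01e-06). That of Tfrc was 1.20 ± 0.23 (SE, edgeR adjusted p = 0.00257) and that of Slc11a2 was 0.96 ± 0.23 (SE, edgeR adjusted p = 0.0142). In each of these 3 genes all 3 explants were above all 3 testes. The other 5 members were not called, with values of -0.22 for Slc40a1, 0.48 for Fth1, 0.04 for Ftl1, 0.57 for Mt1 and 0.46 for Mt2. Fitted on these 6 libraries alone, 6 members were called, with Fth1, Mt1 and Mt2 added. The share of all genes called in that fit is not given here, so that this count is not read as a result about the members. With 6.5 dpp fresh replicate 1 in the fit the number called was 1 (Tfrc). The Slc11a2 call was also lost without 10.5 dpp replicate 1 (0.92, edgeR adjusted p = 0.0688) or replicate 3 (0.91, edgeR adjusted p = 0.0746).

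**Figure D2:**
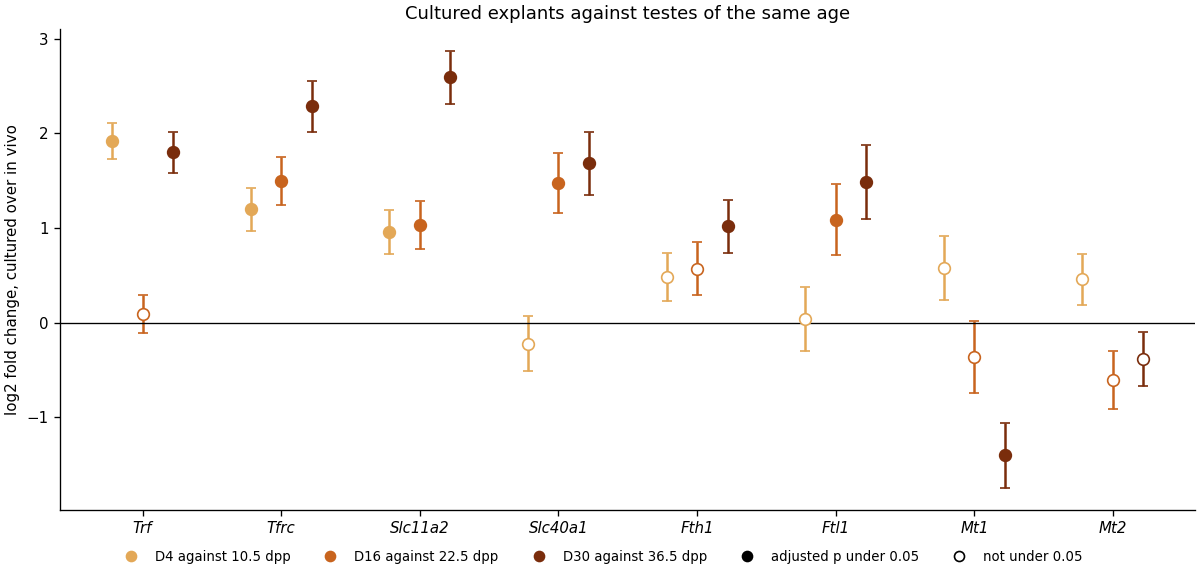
Log2 fold change of cultured explants over testes of the same age for the 8 members, with bars of 1 SE. Filled points have an adjusted p under 0.05 and open points do not; Tfrc and Slc11a2 are filled at all 3 ages and Mt2 at none.

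At D16, 4 members were called higher than at 22.5 dpp and 0 lower, against 14.0% and 11.8% of all genes. Import and export genes were both among them. The log2 fold change was 1.50 ± 0.25 (SE, edgeR adjusted p = 5.07e-04) for Tfrc and 1.03 ± 0.25 (SE, edgeR adjusted p = 0.00874) for Slc11a2. It was 1.47 ± 0.32 (SE, edgeR adjusted p = 0.00395) for Slc40a1 and 1.09 ± 0.37 (SE, edgeR adjusted p = 0.0414) for Ftl1. Trf, at 0.09 (95% interval -0.31 to 0.49), was near 0 here and below 0 with RLE factors. The values of Fth1 (0.57), Mt1 (-0.37) and Mt2 (-0.61) were not called either. With 2 libraries at D16, the Slc11a2 call rested on replicate 2 (0.70, edgeR adjusted p = 0.195 without it). The Ftl1 call was lost without D16 replicate 1 or 2 (0.73 and 1.38, edgeR adjusted p = 0.233 and 0.0793), without 22.5 dpp replicate 1 or 3 (1.13 and 0.96, edgeR adjusted p = 0.0932 and 0.135) and with RLE factors (1.00, edgeR adjusted p = 0.0638). In addition, with 6.5 dpp fresh replicate 1 in the fit 2 members were called (Tfrc and Slc40a1).

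At D30, 6 members were called higher than at 36.5 dpp and 1 lower, against 32.4% and 35.0% of all genes. Slc11a2 had the largest log2 fold change of the 8, 2.59 ± 0.28 (SE, edgeR adjusted p = 8.37e-07), followed by Tfrc with 2.29 ± 0.27 (SE, edgeR adjusted p = 2.03e-06). In mean CPM these are 9.47-fold and 7.59-fold. The fitted value was 1.80 ± 0.21 (SE, edgeR adjusted p = 2.10e-06) for Trf and 1.68 ± 0.33 (SE, edgeR adjusted p = 2.90e-04) for Slc40a1. Ferritin was higher as well, by 1.02 ± 0.28 (SE, edgeR adjusted p = 0.00407) for Fth1 and 1.49 ± 0.39 (SE, edgeR adjusted p = 0.00272) for Ftl1. Both ferritin calls were lost without 36.5 dpp replicate 2 (0.78 with an edgeR adjusted p of 0.0712 for Fth1, and 0.87 with 0.0659 for Ftl1). Mt1 was the member called lower, with -1.41 ± 0.34 (SE, edgeR adjusted p = 0.00161), and its 4 explants were all below both testes. Mt2 was not called (-0.39), and its sign turned with scaling on library totals (0.24). In the 6 members called higher, every explant was above both testes in CPM.

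Whether the culture effect itself differed between ages was tested as a difference of both log2 fold changes. From D4 to D16 it differed for 2 members, Trf, whose effect was smaller at D16 by 1.83 ± 0.28 (SE, edgeR adjusted p = 8.83e-04), and Slc40a1, whose effect was higher by 1.70 ± 0.43 (SE, edgeR adjusted p = 0.0212). That is 1 member in each direction, against 5.26% higher and 4.36% lower of all genes. The Slc40a1 call was lost without D16 replicate 2, D4 replicate 3 or 22.5 dpp replicate 3 (1.57 to 1.65, edgeR adjusted p 0.0530 to 0.0991), and both calls were lost with 6.5 dpp fresh replicate 1 in the fit. From D4 to D30 it differed for 5 members, 4 with a higher effect and 1 with a lower one, against 25.8% and 20.7% of all genes. The difference was 1.09 ± 0.34 (SE, edgeR adjusted p = 0.0132) for Tfrc and 1.64 ± 0.34 (SE, edgeR adjusted p = 0.00106) for Slc11a2. It was 1.91 ± 0.43 (SE, edgeR adjusted p = 0.0019) for Slc40a1 and 1.45 ± 0.51 (SE, edgeR adjusted p = 0.026) for Ftl1. For Mt1 it was -1.98 ± 0.48 (SE, edgeR adjusted p = 0.00317). Without 36.5 dpp replicate 2, 3 of these 5 calls were left, those of Tfrc (0.83, edgeR adjusted p = 0.0896) and Ftl1 (0.82, edgeR adjusted p = 0.170) being lost. The Ftl1 difference was also lost without 10.5 dpp replicate 3 (1.37, edgeR adjusted p = 0.0524) or D4 replicate 1 (1.27, edgeR adjusted p = 0.0684). With RLE factors Tfrc (0.85, edgeR adjusted p = 0.0513) and Ftl1 (1.21, edgeR adjusted p = 0.0652) were not called. In mean level Slc40a1 stood at 38.0, 42.4 and 36.1 CPM in D4, D16 and D30 explants, and at 47.2, 13.6 and 7.18 CPM in the testes of those ages.

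Marker genes of the cell types in the tissue were summed in each library. A sum leans on its most abundant markers, and the directions of single Sertoli and macrophage markers are not given here. The summed level of 6 Sertoli cell markers (Cldn11, Rhox5, Dhh, Aard, Defb19 and Ctsl) was 3931 to 4346 CPM at 10.5 dpp, 1215 to 2047 at 22.5 dpp and 641 to 767 at 36.5 dpp, but 4935 to 5847 in D4 explants, 4191 to 4438 in those of D16 and 3636 to 6287 in those of D30, and no marker of the list was at 0 in any stage. In mean CPM the Sertoli sum was 6.79-fold higher at D30 than at 36.5 dpp, beside 5.42-fold for Trf and 7.59-fold for Tfrc. At D4 it was 1.28-fold that of 10.5 dpp, where Trf was 3.58-fold higher. At D16 it was 2.74-fold that of 22.5 dpp, where Trf was 1.19-fold and not called. From 10.5 to 22.5 dpp in vivo the Sertoli sum became 2.65-fold lower while Trf rose. Elongating spermatid markers (Prm1, Prm2, Tnp1 and Tnp2) summed to 16208 to 21199.5 CPM at 36.5 dpp and to 331 to 1601 CPM at D30, and to at most 32.1 CPM in any library of the other stages. Endothelial markers were 8.06-fold higher at D30 than at 36.5 dpp and peritubular myoid markers 4.37-fold, whereas Leydig cell markers were 4.16-fold lower. Of the 4 endothelial markers Cdh5, Kdr and Pecam1 were called higher and Tek lower, 3 of the 4 myoid markers were called higher, and all 5 Leydig markers lower. Germ cell markers (Ddx4, Dazl and Mael) summed to 889.8 to 2382 CPM at D30 and to 1790.0 to 3097 CPM at 36.5 dpp. The part of these cell types in the levels of the members was not tested.

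**Figure D3:**
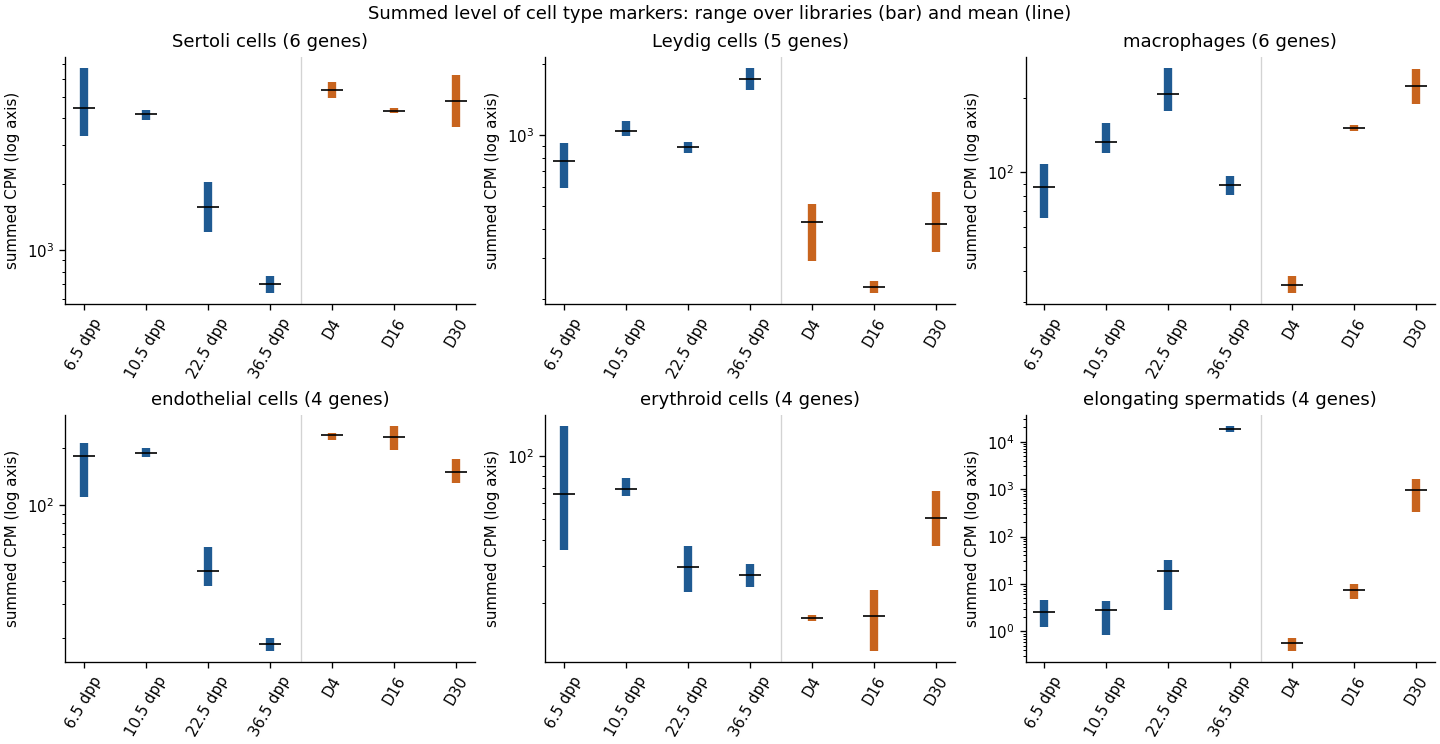
Summed CPM of the markers of 6 cell types by stage (log axis), as the range over libraries with a line at the mean, blue in vivo and orange in culture. Sertoli and endothelial sums fall in vivo to 36.5 dpp and stay high in explants, and the spermatid sum at D30 is far below that at 36.5 dpp.

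Macrophages and red blood cells also carry much of the body's iron. Markers of macrophages summed to 119.7 to 159 CPM at 10.5 dpp and 32.6 to 38.1 CPM at D4, where Slc40a1 was not called. They summed to 177 to 264 CPM at 22.5 dpp and 147 to 155 CPM at D16, and to 80.8 to 96.6 CPM at 36.5 dpp and 189 to 262 CPM at D30. In mean CPM the macrophage sum was 3.82-fold lower at D4 and 1.37-fold lower at D16 than in testes of the same age, and 2.52-fold higher at D30. Slc40a1 was called higher at both D16 and D30. Erythroid markers summed to 35.6 to 139 CPM at 6.5 dpp and 16.3 to 17.5 CPM at D4, with 1 of the 4 at 0 in the D4 explants. Of the 3 tested, the globins Hbb-bt and Hba-a1 were called lower at D4 than at 6.5 dpp and Alas2, the erythroid enzyme of heme synthesis, higher (1.22 ± 0.27, edgeR adjusted p = 0.0035). Their part in the iron genes was not tested.

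The order of the stages differed between members. Trf was highest at D30, apart from D4 and D16, which overlapped each other and 22.5 dpp. For Tfrc D4 and D16 overlapped at the top and D30 came next, apart from them. The highest stages of Slc11a2 were D4, D30 and D16; the D30 range overlapped both others, while all D4 libraries were above those of D16. Slc40a1 and Ftl1 were highest at 6.5 and 10.5 dpp, with ranges that overlapped each other. The 10.5 dpp range of Slc40a1 lay above every D4 explant, and the 6.5 dpp range of Ftl1 lay above all explants of D16 and D30. Fth1 was highest at D30, D16 and D4, again with overlap. Mt1 was highest at 36.5 dpp and Mt2 at 22.5 dpp, and both ranges reached into the stage below.

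Levels of different genes can be compared only per length, here as CPM per kb of the main GENCODE transcript. At 6.5 dpp Fth1 stood at 615 ± 176 CPM per kb (SD, n = 4), above Mt1 at 148 ± 46.3 and Mt2 at 146 ± 35.1. Tfrc measured 44.0 ± 12.6 CPM per kb, Ftl1 53.3 ± 16.3 and Slc11a2 22.8 ± 6.17. Slc40a1, at 14.4 ± 4.18, and Trf, at 6.16 ± 1.03, were the lowest. At 36.5 dpp the order was another: Mt1 led with 495 to 782 CPM per kb in the 2 libraries, above Fth1 with 204 to 293 and Mt2 with 138 to 197, and the other 5 members were at most at 11.5 CPM per kb. At D30 Fth1 led with 533 to 1043 CPM per kb, Mt1 followed with 292 to 442, and Trf, at 38.0 to 46.3, had passed Ftl1 in mean level, at 25.2 to 41.6. The place of Ftl1 among the members is uncertain, since most windows of its transcript also occur in other genes.

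Ratios of 2 members within a library do not depend on the scaling between libraries, and were chosen after the values above were seen. The ratio of Mt1 to Mt2 counts was 1.18, 1.12, 0.853 and 1.17 at 6.5 dpp, 1.32, 1.20 and 1.21 at 10.5 dpp and 2.13, 1.54 and 1.54 at 22.5 dpp. At 36.5 dpp it was 4.26 and 3.84, above every other library. The D30 explants were close to each other, at 1.95, 1.98, 2.08 and 2.08. The ratio of Fth1 to Ftl1 was 9.93 to 13.8 over the 6.5 and 10.5 dpp libraries, 24.4 to 55.0 over those of 22.5 and 36.5 dpp and 14.7 to 29.8 over all explants. Its size carries the uncertainty of the Ftl1 count given above. The ratio of Tfrc to Slc40a1, entry against exit, was 3.20 to 4.71 over the 6.5 and 10.5 dpp libraries and 10.9, 9.23 and 10.1 at D4, with no overlap. It was 7.54 to 9.99 at 22.5 dpp and 8.55 and 8.38 at D16, and these ranges overlap, receptor and exporter both being higher in culture at that age. At D30 the ratio was 4.93 in fresh replicate 3 and 8.55 to 10.8 in the others, beside 4.76 and 6.16 at 36.5 dpp.

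**Figure D4:**
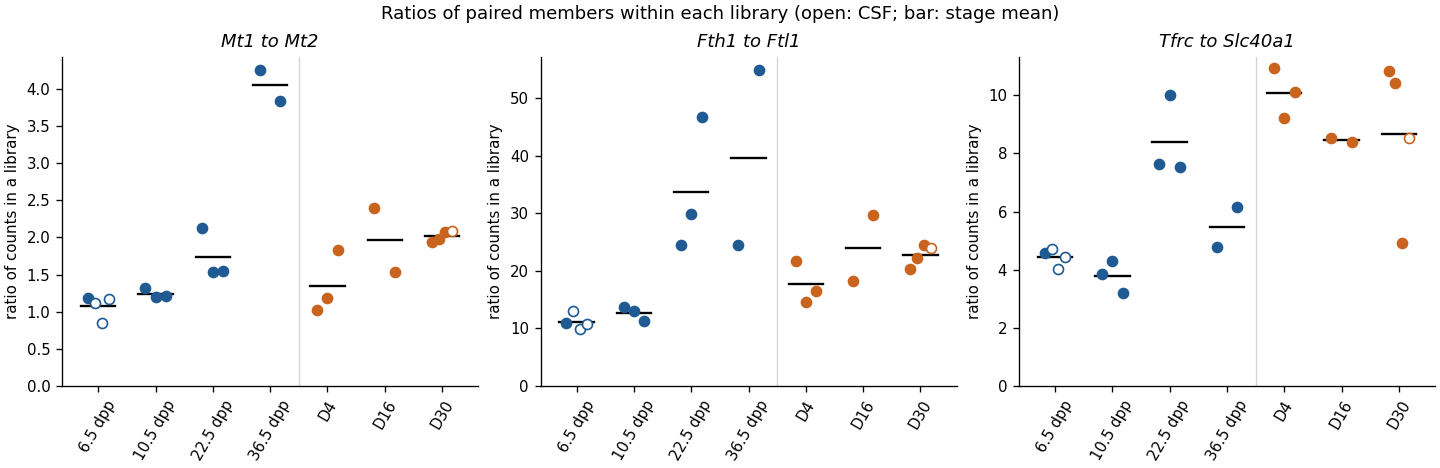
Ratio of the counts of paired members in each library, by stage, with a bar at the stage mean; blue points are in vivo, orange points cultured and open points CSF. Mt1 to Mt2 is highest at 36.5 dpp (3.84 and 4.26), and Tfrc to Slc40a1 is higher at D4 than at 6.5 and 10.5 dpp.

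Freezing can be set beside fresh tissue only by values, since 1 fresh library at 6.5 dpp and 1 frozen library at D30 remain. At 6.5 dpp the 3 CSF libraries were above the fresh one for Tfrc, Slc40a1, Fth1, Ftl1 and Mt2 and below it for Trf and Slc11a2, while Mt1 lay between them. At D30 the CSF library was inside the range of the 3 fresh explants for Trf, Tfrc, Slc11a2, Slc40a1 and Mt2. It was above that range for Fth1 (969 against at most 773 CPM), for Ftl1 (40.3 against 31.4 CPM) and, by a small margin, for Mt1 (242.5 against 242.1 CPM).

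Beyond the members, 6 lists hold 96 genes of iron, zinc and copper handling (members included), of which 91 passed the filter. Against testes of the same age, 14 of the 91 were called higher and 0 lower in D4 explants, where 4.92% and 3.18% of all genes were. In D16 explants 20 were higher and 8 lower, beside 14.0% and 11.8% of all genes, and in D30 explants 37 were higher and 25 lower, beside 32.4% and 35.0%. The members reported above are among these, with 3, 4 and 6 higher and 0, 0 and 1 lower at D4, D16 and D30. The counts of each list that follow stand against the same shares of all genes. In the iron uptake list, of 19 genes tested, 7, 5 and 12 were called higher at D4, D16 and D30, and 0, 0 and 3 lower. Its median log2 fold change was 0.37, 0.35 and 1.88, where the median of all genes was -0.01, -0.08 and -0.03. Slc39a14, a zinc transporter that also takes up iron not bound to transferrin, was higher at D4 (0.82 ± 0.22, edgeR adjusted p = 0.03) and at D30 (2.19 ± 0.27, edgeR adjusted p = 2.82e-06). Steap4, a metalloreductase, was higher at D16 (1.32 ± 0.39, edgeR adjusted p = 0.0213) and at D30 (2.47 ± 0.43, edgeR adjusted p = 9.43e-05), and Steap3, the endosomal ferrireductase that works with DMT1, at D30 (1.90 ± 0.23, edgeR adjusted p = 2.28e-06). Scara5, a ferritin receptor, ranged over 32.1 to 58.8 CPM at 36.5 dpp and 208 to 336 CPM at D30 (1.82 ± 0.29, edgeR adjusted p = 4.38e-05). Haptoglobin (Hp), which binds free haemoglobin, was higher at D4 (2.86 ± 0.40, edgeR adjusted p = 1.43e-04) at a level of only 2.04 to 3.12 CPM.

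**Figure D5:**
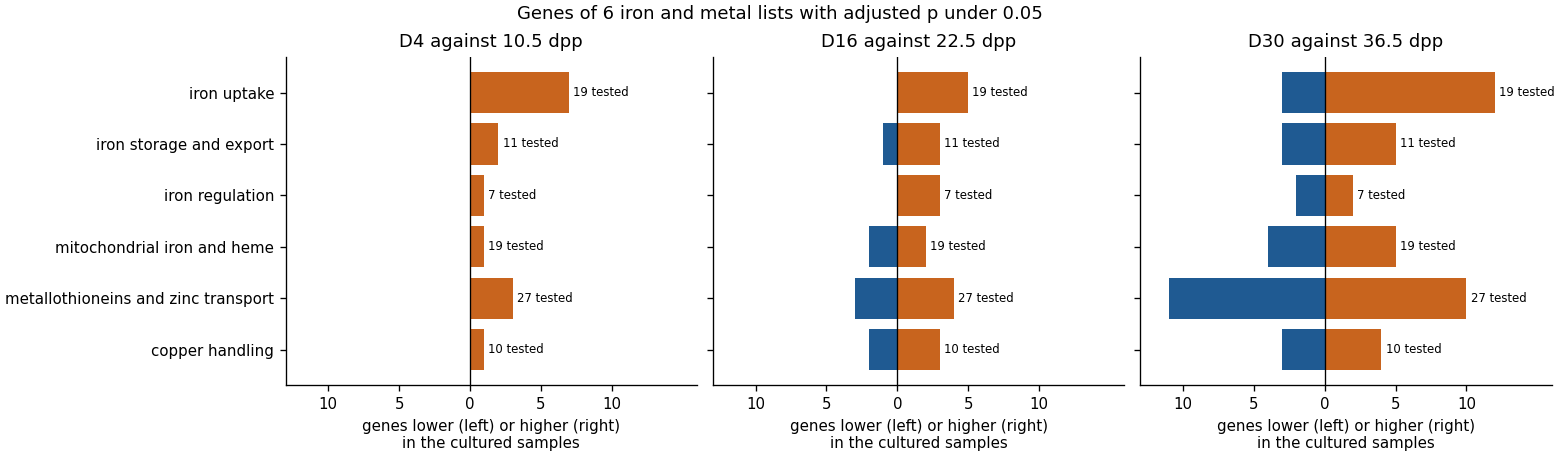
Number of genes of each of 6 lists called lower (blue, left) or higher (orange, right) in explants than in testes of the same age, with the number tested at the end of each bar. Iron uptake has 7, 5 and 12 genes called higher and 0, 0 and 3 called lower.

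The iron uptake genes did not all move one way. Lcn2, a secreted lipocalin that binds iron carried by siderophores, ranged over 0.651 to 0.751 CPM at 10.5 dpp, 8.21 to 10.4 CPM at 22.5 dpp and 252 to 307 CPM at 36.5 dpp. It was called higher at D4 than at 10.5 dpp (3.35 ± 0.28, edgeR adjusted p = 7.27e-07) and lower at D30 than at 36.5 dpp (-1.87 ± 0.25, edgeR adjusted p = 6.07e-06), with 101 to 145 CPM. Melanotransferrin (Meltf) and the zinc and manganese carrier Slc39a8 were the other genes of the list called lower at D30.

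In storage and export, of 11 genes tested 2, 3 and 5 were called higher at the 3 ages and 0, 1 and 3 lower, with medians of 0.23, -0.46 and 0.94. The copper oxidases that work with ferroportin were among them. Hephaestin (Heph) was higher at D16 (1.91 ± 0.29, edgeR adjusted p = 2.26e-04) and D30 (2.09 ± 0.31, edgeR adjusted p = 2.22e-05), and ceruloplasmin (Cp) at D4 (0.68 ± 0.20, edgeR adjusted p = 0.0386) and D30 (1.81 ± 0.23, edgeR adjusted p = 3.84e-06). In contrast, the mitochondrial ferritin Ftmt, at 81.4 to 87.9 CPM at 36.5 dpp and at most 0.0353 CPM at 6.5 dpp, reached 5.82 to 11.3 CPM in the D30 explants (-3.75 ± 0.64, edgeR adjusted p = 7.32e-05). The ferritin heavy chain-like Fthl17a behaved alike, with 18.8 to 21.7 CPM at 36.5 dpp and 2.09 to 4.10 CPM at D30 (-3.17 ± 0.70, edgeR adjusted p = 0.00106).

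Of 7 regulation genes tested 1, 3 and 2 were called higher and 0, 0 and 2 lower, with medians of 0.25, -0.0027 and 0.18. Hfe, which binds the transferrin receptor, was called higher at all 3 ages, at D30 with a log2 fold change of 2.06 ± 0.27, edgeR adjusted p = 5.92e-06. Of the iron regulatory proteins that bind the hairpins shown above, Aco1 (IRP1) was higher at D16 (0.87 ± 0.24, edgeR adjusted p = 0.0141) and D30 (1.83 ± 0.25, edgeR adjusted p = 8.22e-06), and Ireb2 (IRP2) at D16 (0.57 ± 0.20, edgeR adjusted p = 0.0484). Their activity is set by iron at the protein and was not measured.

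Of 19 mitochondrial iron and heme genes 1, 2 and 5 were called higher at D4, D16 and D30 and 0, 2 and 4 lower, with medians of 0.04, 0.14 and -0.27. The heme oxygenases parted: Hmox1, the inducible form, was higher at D16 (0.94 ± 0.16, edgeR adjusted p = 6.33e-04) and D30 (1.25 ± 0.17, edgeR adjusted p = 6.38e-06), whereas Hmox2, at 537 to 542 CPM at 36.5 dpp, was lower at D30 (-2.82 ± 0.23, edgeR adjusted p = 5.69e-08). Alas1, the first enzyme of heme synthesis, was lower at D16 (-1.13 ± 0.29, edgeR adjusted p = 0.0112). Among 27 metallothionein and zinc genes 3, 4 and 10 were called higher and 0, 3 and 11 lower, with medians of 0.10, 0.14 and -0.13. Mtf1, the factor that binds the metal response element, was lower at D16 (-0.78 ± 0.26, edgeR adjusted p = 0.0377) and D30 (-1.94 ± 0.23, edgeR adjusted p = 2.53e-06). In vivo it was called higher from 22.5 to 36.5 dpp, where it reached 129.9 to 219.6 CPM. In that step Mt1 was called higher too, though not in all fits, and Mt2 was not called (-0.07). A link of Mtf1 with their levels was not tested. The zinc exporter Slc30a2 was higher at D4, D16 and D30, at D30 with a log2 fold change of 2.14 ± 0.24, edgeR adjusted p = 1.03e-06. Tesmin, a germ cell protein with a metallothionein-like cysteine-rich part, was higher at D4 (2.09 ± 0.37, edgeR adjusted p = 0.00147) and lower at D30 (-1.22 ± 0.37, edgeR adjusted p = 0.00706). Of 10 copper genes 1, 3 and 4 were called higher and 0, 2 and 3 lower, with medians of 0.04, -0.06 and -0.04, among them the importer Slc31a1 at all 3 ages (D30: 1.88 ± 0.18, edgeR adjusted p = 2.48e-07).

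In vivo, 33 of the 91 genes were called higher and 27 lower from 10.5 to 22.5 dpp, where 33.6% and 27.9% of all genes were. From 22.5 to 36.5 dpp 20 were called higher and 26 lower, beside 23.3% and 27.5% of all genes. Several list calls named above were lost in many of the alternative fits, counted here without the stricter threshold of the study. At D4, of 14 alternatives, Slc39a14 was called in 7, Cp in 5 and Slc31a1 in 8. At D16, of 13 alternatives, Ireb2 was called in 3 (edgeR adjusted p = 0.427 without D16 replicate 2), Hfe and Mtf1 in 5 each (edgeR adjusted p = 0.222 and 0.370 without that library), Steap4 in 8, and Aco1 and Alas1 in 9 each. The iron uptake list had the lowest median of the 6 in the second step, with 10 of its 19 genes called lower and 3 higher and a median of -1.06 where that of all genes was -0.13.

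As a description, the genes whose log2(CPM + 1) followed each member most closely over the 21 libraries were sought among 12935 genes with a mean of at least 5 CPM. The closest to Trf were C3 (r = 0.960), complement component 3, and Lrrn4 (r = 0.951). For Tfrc they were P4ha1 (r = 0.979), a subunit of the iron-dependent collagen prolyl hydroxylase, and Gadd45a (r = 0.969). For Slc11a2 they were Slc52a3 (r = 0.992), a riboflavin transporter, and P2ry2 (r = 0.987). The closest to Slc40a1 were Mmgt2 (r = 0.971) and Ywhab (r = 0.970), to Fth1 Psmd7 (r = 0.956) and Ostf1 (r = 0.954), and to Ftl1 Ftsj1 (r = 0.983) and Eola1 (r = 0.978). Those of Mt1 were 1700022N22Rik (r = 0.970) and Dctn2 (r = 0.968), and those of Mt2 were Cfap20 (r = 0.911) and Bcl7b (r = 0.886), the weakest matches of the 8. Libraries of a stage share their kind of tissue, so that the 21 points are not independent.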

How the data were processed

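RNA from whole CD-1 testes and from cultured explants was sequenced as 50-base single-end reads of stranded mRNA libraries. Per the labels and the study's methods, the authors made the deposited table of raw counts per gene (NCBI gene IDs) with bcl2fastq 2.17.1.14, STAR 2.7.3a on GRCm38 and HTSeq 0.12.4 in the intersection-nonempty mode. The strand setting of the counting is not given in the sources used here. Whether reads of a gene and of an antisense partner were told apart is therefore unknown (Gm45774 overlaps Mt2 on the other strand in GENCODE). Symbols were matched by ID to RefSeq GRCm38.p6 for 27373 of 27466 genes, while genes without a symbol carry 0.0202% of all reads counted.

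The 8 members and all gene lists were chosen with earlier results of these data known. Groups came from the sample labels, with frozen tissue pooled with fresh tissue of its stage. Counts of 21 libraries in 7 stages were fitted in R 4.3.3 with edgeR 4.0.16 (TMM factors, filterByExpr, glmQLFit and glmQLFTest, two-sided), with Benjamini-Hochberg adjustment over the 19255 genes tested and a threshold of 0.05. The SE of a log2 fold change is its size divided by the square root of F. CPM is a count per 1000000 counts of the library, with no TMM factor. The fit was tested on simulated data. Named genes are the 8 members, genes of the lists and, for each member, the 2 genes with the highest Pearson correlation of log2(CPM + 1). Of the 5 erythroid markers 4 are in the table. Alternatives were RLE factors, library totals alone, no filter, DESeq2 1.42.0, the stricter threshold of the study (log2 fold change beyond 2 in size, adjusted p up to 0.001), the left-out library added, fresh tissue only, the compared groups only, a replicate block, and leaving out each library. Members' values depend on counts of at least 134 reads.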

Additional observations from a re-analysis of the deposited data

Results flagged for a closer look

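In 16 groups of 4 libraries (8 members at 6.5 dpp and at D30) the distance of the extreme library from its neighbour was set against the group's range. Tfrc in CSF replicate 3 of 6.5 dpp, at 307 CPM beside 180.0 to 187 CPM, passed Dixon's limit, 1 such result where chance gives about 1 in 20 groups. The same library was also the highest of its stage for Slc40a1, Fth1, Ftl1, Mt1 and Mt2.

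The culture effect differed between ages in 7 tests of the difference (edgeR, adjusted p under 0.05). From D4 to D16 the effect changed by -1.83 on the log2 scale for Trf and by 1.70 for Slc40a1. From D4 to D30 it changed by 1.09 for Tfrc, 1.64 for Slc11a2, 1.91 for Slc40a1, 1.45 for Ftl1 and -1.98 for Mt1.

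The library labelled 6.5 dpp fresh replicate 1, which was left out of the comparisons and entered only an alternative fit, lay outside the range of the other 6.5 dpp libraries for 4 members on the high side. It held 69.2 CPM of Trf beside 13.7 to 19.7 CPM, and 310.3 CPM of Tfrc, just above the 307 CPM of CSF replicate 3. Slc11a2 stood at 214 CPM beside 77.0 to 135 CPM, and Mt1 at 120.3 CPM beside 59.5 to 118 CPM. For Trf and Slc11a2 these values fall among those of the explants. It was below the other 6.5 dpp libraries for 3 members, with 34.2 CPM of Slc40a1 beside at least 39.4, 358 CPM of Fth1 beside at least 441 and 20.4 CPM of Ftl1 beside at least 40.6.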

How the results depend on the processing

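Of the 33 called log2 fold changes of members, none changed sign in the alternatives run, and 33 stayed called with DESeq2, 33 without the filter on low counts, 33 with the replicate block, 32 with library totals, 32 in fresh tissue only, 30 with RLE factors, 30 with the compared groups only, 23 with 6.5 dpp fresh replicate 1 in the fit and 3 at the threshold of the study. Replicate numbers do not pair the libraries (median correlation of deviations 0.00863 for the same number and -0.00689 for others), and the block left 5 members called at 22.5 against 10.5 dpp, as without it; it changed no call of a member. Leaving out 1 library at a time kept 215 of 233 called values of members and 400 of 478 of the named list genes. Values that turned sign were uncalled ones: Trf at D16 against 22.5 dpp (-0.0090 with RLE factors, -0.0085 with DESeq2, -0.064 to 0.24 leaving out libraries), Ftl1 at D4 against 10.5 dpp (-0.050 with library totals, -0.060 to 0.19 leaving out libraries), Mt1 at D16 against 22.5 dpp (-0.98 to 0.066 leaving out libraries) and Mt2 at D30 against 36.5 dpp (0.24 with library totals).

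At the threshold of the study the number of members called was 0 for 22.5 against 10.5 dpp, 36.5 against 22.5 dpp, D4 against 10.5 dpp, D16 against 22.5 dpp and both differences of the culture effect, 1 for D4 against 6.5 dpp and 2 for D30 against 36.5 dpp. List genes called were then 3 higher at D4, 0 higher and 0 lower at D16, and 9 higher and 5 lower at D30. With 6.5 dpp fresh replicate 1, members called were 1 for D4 against 6.5 dpp, 1 for D4 against 10.5 dpp, 2 for D16 against 22.5 dpp and 0 for the culture effect at D16 minus D4, and list genes were 4 higher at D4, 11 higher and 3 lower at D16 and 15 lower at D30. With the compared groups only, members were 6, 2 and 4 for D4, D16 and their difference, and list genes 31 higher and 12 lower at D4 and 8 higher and 2 lower at D16. DESeq2 called 1 member for D30 against D16 and 15 list genes lower at D16, and 1 list gene was lower at D4 with DESeq2, RLE factors or fresh tissue only. With library totals 7 members were called for 22.5 against 10.5 dpp and 5 for 36.5 against 22.5 dpp. The main fit called 5 and 4 there. The number of all genes called shifted as well. It moved beyond a set margin in 11 of 11 comparisons at the threshold of the study and in 7 with 6.5 dpp fresh replicate 1. It did so in 5 with the compared groups only and in 3 with DESeq2. The member and list counts are not read apart from that shift. The cause of these shifts was not tested.

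Leaving out each library gave 3 to 3 members for D4 against 6.5 dpp, 5 to 5 for 22.5 against 10.5 dpp, 3 to 4 for 36.5 against 22.5 dpp, 0 to 1 for D16 against D4, 2 to 3 for D4 against 10.5 dpp, 2 to 4 for D16 against 22.5 dpp, 5 to 7 for D30 against 36.5 dpp, 1 to 3 for the D16 and 3 to 5 for the D30 difference. List genes were 7 to 13 higher at D4, 6 to 20 higher and 1 to 12 lower at D16, and 30 to 38 higher and 23 to 27 lower at D30. With 1 library left out, the number of all genes called moved beyond the set margin in 29 of 76 cases. For D16 against 22.5 dpp this held in 3 of 5 fits, and for the D16 difference in 10 of 11. For D30 against 36.5 dpp it held in 0 of 6. Over the fits of D4 against 6.5 dpp the number ran from 2524 to 4277 genes. Where it moved, the ranges of members and list genes are not read as a result about them. Stages of 2 libraries (36.5 dpp and D16) limit each comparison that uses them, since 1 library then stands alone and is taken to vary like the other groups.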
